A study of Mus musculus with 26 samples.

Results

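The 8 genes described here are Hmgcs1, Idi1, Fdps, Fdft1, Sqle, Lss, Cyp51 and Insig1, chosen by symbol as genes of cholesterol synthesis and its control. All 8 were found among the 52535 gene rows of the RNA-seq count tables, and all 8 were among the 17273 genes that passed the filter on low counts. RNA polymerase II loops were assigned to them where an anchor lay within 2500 bases of the annotated gene in mm10. This gave 251 of 489409 loops in the KO-labelled list and 114 of 143451 loops in the WT-labelled list. The set is named for cholesterol synthesis and uptake, but it holds 7 enzymes of the synthesis route and the regulator Insig1, and no receptor or carrier, so genes of uptake are described from a list of their own.

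The cells were E14, a line of mouse embryonic stem cells, and both groups were labelled as neural progenitor cells (NPC) after neural induction for 12 days. One genotype is labelled as lacking Klf4 (KO, knockout), which encodes a transcription factor of the pluripotency network, and the other as wild type (WT), and before induction both were grown with serum, LIF, PD0325901 and CHIR99021. Each labelled genotype had 2 RNA-seq libraries, stated to be biological replicates, and 1 polymerase II loop list in which its 2 HiChIP samples were pooled. How many knockout clones were used is not given in the sources used here, and the 18 ChIP-seq samples of undifferentiated cells were not analysed.

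Klf4 had 2571 and 2538 counts in the KO-labelled libraries and 0 and 0 counts in the WT-labelled ones. Set against a floor of 3 counts for each WT-labelled library, this is a rise of at least 752-fold (adjusted p = 1.25e-23 from edgeR's quasi-likelihood test, with Benjamini-Hochberg adjustment), which is the opposite of the genotype labels. Libraries are therefore called by their labels, and every direction below is KO-labelled relative to WT-labelled. The loop lists carry the same labels, and Klf4 counts do not check those. Libraries held 31909094 and 33347088 gene counts (KO-labelled) and 37703866 and 29835774 gene counts (WT-labelled).

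Markers of the labelled cell type were few beside those of stem cells. The summed level of 10 pluripotency genes was 2982 and 3032 CPM (counts scaled to a common library size) in the KO-labelled libraries and 6507 and 6482 CPM in the WT-labelled ones, with 9 of 10 called lower and Klf2 called higher. The 10 neural progenitor genes summed to 125 and 133 CPM in KO-labelled and 77.6 and 76.0 CPM in WT-labelled libraries. Most of each sum was Nes, at 94.41 and 98.86 CPM in KO-labelled and 73.38 and 73.31 CPM in WT-labelled libraries. Fabp7, Pax3 and Hes5 had no count in WT-labelled libraries, and 9 of the 9 neural progenitor genes tested were called higher. In the same KO-labelled libraries, 8 of 8 mesoderm and fibroblast genes were called higher (summed 453 and 441 CPM, against 8.29 and 6.58 CPM in WT-labelled libraries), as were 5 of 5 tested endoderm genes (36.4 and 36.8 CPM, against 1.08 and 1.34 CPM). Of the neuron genes 4 of 6 tested were called higher and 2 lower. The neuron genes summed to 205 and 203 CPM in KO-labelled and 509 and 493 CPM in WT-labelled libraries. Of the tested genes, 3 of 4 glial and 4 of 5 trophoblast genes were called higher. The trophoblast gene Cdx2 was called lower, at 2.28 and 1.06 CPM in KO-labelled and 17.67 and 15.83 CPM in WT-labelled libraries. Dcx, Olig2, Elf5 and Afp had 0 to 5 counts in every library. Of all genes tested, 37.2% were called higher and 35.8% lower. The part of these markers in the results below was not tested. Fewer cells of a type and less RNA per cell cannot be told apart in such bulk libraries.

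Cholesterol is built from acetyl-CoA by way of mevalonate, isoprenoid units, squalene and lanosterol, and most genes of the route are activated by the transcription factor SREBP2, the product of Srebf2. When sterols are plentiful, INSIG proteins hold SREBP and its escort SCAP in the endoplasmic reticulum, and the genes of synthesis and of lipoprotein uptake are then less active. Dividing cells need sterol for new membranes, and the developing brain makes its own.

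The 8 genes did not move together. In the KO-labelled libraries Sqle, Idi1, Fdft1, Lss and Hmgcs1 were called lower, Cyp51 was called higher, and Fdps and Insig1 were not called. That is 1 of 8 called higher, where 37.2% of all genes tested were, and 5 of 8 called lower, where 35.8% of all genes tested were. With upper-quartile scaling 2 were called higher and 3 lower, and with library size alone 3 higher and 2 lower. With TMM, the trimmed-mean scaling used throughout, only Sqle and Cyp51 were more than 1.5-fold apart between the groups. The levels of KO-labelled and WT-labelled libraries did not overlap for any of the 8 genes, as for 86.3% of all genes tested. Their median log2 fold change was -0.20, against 0.03 over all genes tested, and their range ran from -0.85 to 0.63. As a share of gene counts without further scaling, the 8 genes took 0.0794% and 0.0795% in KO-labelled libraries and 0.0778% and 0.0788% in WT-labelled ones.

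**Figure D1:**
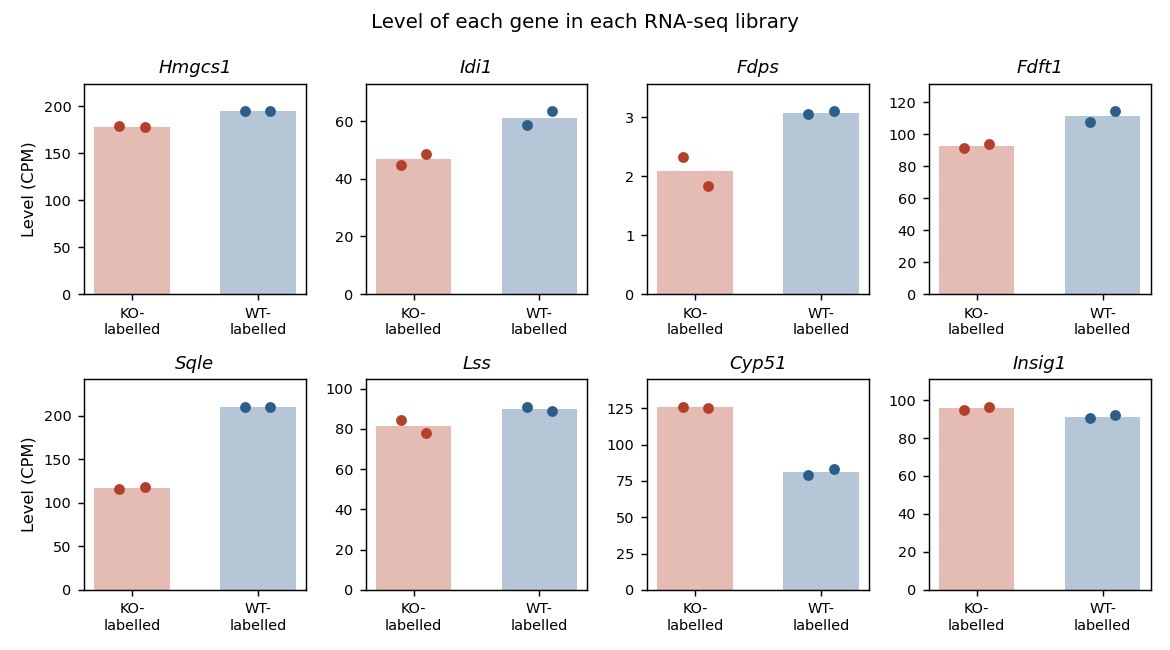
Level of each of the 8 genes in each RNA-seq library, in CPM on a linear axis that starts at 0 and differs between panels; points are libraries, bars are means, with the KO-labelled group on the left of each panel. Sqle lies at 116.0 and 117.9 CPM in KO-labelled libraries and at 210.5 and 209.8 CPM in WT-labelled ones, while Cyp51 lies the other way round, at 126.1 and 125.3 CPM against 79.37 and 82.96 CPM.

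Hmgcs1 encodes the cytosolic HMG-CoA synthase, which supplies the substrate of the reductase step that feeds mevalonate. It stood at 178.7 and 177.6 CPM in KO-labelled libraries and at 195.0 and 194.6 CPM in WT-labelled ones. The groups lay apart by a small step, with both KO-labelled libraries lower. The log2 fold change was -0.13 ± 0.03 (SE; edgeR adjusted p = 0.00148). The call was lost with upper-quartile scaling (adjusted p = 0.266), and the sign turned with library size alone (log2 fold change 0.08, adjusted p = 0.0341), a scaling that puts the median of all genes at 0.236.

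Idi1, the isomerase that balances the pair of five-carbon building blocks, had 44.75 and 48.73 CPM in KO-labelled libraries and 58.85 and 63.55 CPM in WT-labelled ones. Both KO-labelled values were below both WT-labelled values. It fell by 0.39 on the log2 scale (SE 0.06; edgeR adjusted p = 6.96e-06). Fdps, the synthase of farnesyl diphosphate, had the fewest counts of the 8, not scaled to gene length, with 80 and 66 counts in KO-labelled libraries and 107 and 86 counts in WT-labelled ones. Its levels were 2.33 and 1.84 CPM in KO-labelled and 3.05 and 3.11 CPM in WT-labelled libraries, so that the groups were apart but the KO-labelled pair was spread. The log2 fold change of -0.56 ± 0.29 did not pass (edgeR adjusted p = 0.0834). Processed pseudogene copies of Fdps are known in the mouse and reads without a unique alignment were not counted, so the level of this gene is uncertain.

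Fdft1 encodes squalene synthase, the first enzyme that serves sterols alone. It had 91.61 and 93.97 CPM in KO-labelled libraries and 107.7 and 114.4 CPM in WT-labelled ones. Both KO-labelled libraries were lower, by 0.26 ± 0.05 on the log2 scale (edgeR adjusted p = 1.8e-05), a call lost with library size alone (log2 fold change -0.05, adjusted p = 0.352). Fdft1 overlaps the end of Ctsb, a cathepsin gene that was also lower (log2 fold change -0.41 ± 0.04, adjusted p = 4.21e-09), and without a stated strand setting the reads they share cannot be told apart.

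Sqle encodes squalene epoxidase, the first oxygen-requiring enzyme of the route and a known point of flux control. It had 3976 and 4226 counts in KO-labelled libraries and 7388 and 5807 counts in WT-labelled ones. Scaled to CPM, the libraries of each group agreed within 2 CPM, and the KO-labelled mean was 0.556 times the WT-labelled mean. It was 116.9 ± 1.33 CPM in KO-labelled and 210.2 ± 0.516 CPM in WT-labelled libraries (SD, n = 2 each), a log2 fold change of -0.85 ± 0.04 (edgeR adjusted p = 1.22e-16). Of all genes tested, 15.9% had a lower log2 fold change still. The call and its direction held under all 11 alternative settings, with log2 fold changes between -0.86 and -0.64.

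Lss, lanosterol synthase, closes the epoxide into the first sterol ring system. It had 84.37 and 78.02 CPM in KO-labelled libraries and 90.96 and 88.99 CPM in WT-labelled ones, and the gap between the groups was smaller than the gap within the KO-labelled pair. It was called lower by 0.15 ± 0.05 on the log2 scale (edgeR adjusted p = 0.0105). The call was lost without KO-labelled replicate 2 (adjusted p = 0.124), without WT-labelled replicate 1 (adjusted p = 0.0646) and with upper-quartile scaling (adjusted p = 0.271), and the sign turned with library size alone (0.06). A long non-coding RNA that overlaps Lss, 4930483K19Rik, had 4 and 4 counts in KO-labelled and 2 and 8 counts in WT-labelled libraries.

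Cyp51, the P450 enzyme that removes a methyl group from lanosterol, was the single member called higher. Its counts were 4321 and 4493 in KO-labelled libraries and 2785 and 2296 in WT-labelled ones. Both KO-labelled libraries were far above both WT-labelled ones, and the ratio of the groups was 1.55. The means were 125.7 ± 0.518 CPM in KO-labelled and 81.16 ± 2.54 CPM in WT-labelled libraries (SD, n = 2 each), a log2 fold change of 0.63 ± 0.04 (edgeR adjusted p = 2.55e-12). Under the 11 alternatives it lay between 0.60 and 0.84 and was called each time.

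Insig1, the sterol-sensing anchor of SCAP and itself an SREBP target, had 94.87 and 96.46 CPM in KO-labelled libraries and 90.34 and 91.95 CPM in WT-labelled ones. The groups did not overlap, but the gap between them was small. The log2 fold change of 0.07 ± 0.05 did not pass (edgeR adjusted p = 0.168), though it did with upper-quartile scaling (0.16, adjusted p = 0.0039) and with library size alone (0.28, adjusted p = 5.66e-06).

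**Figure D2:**
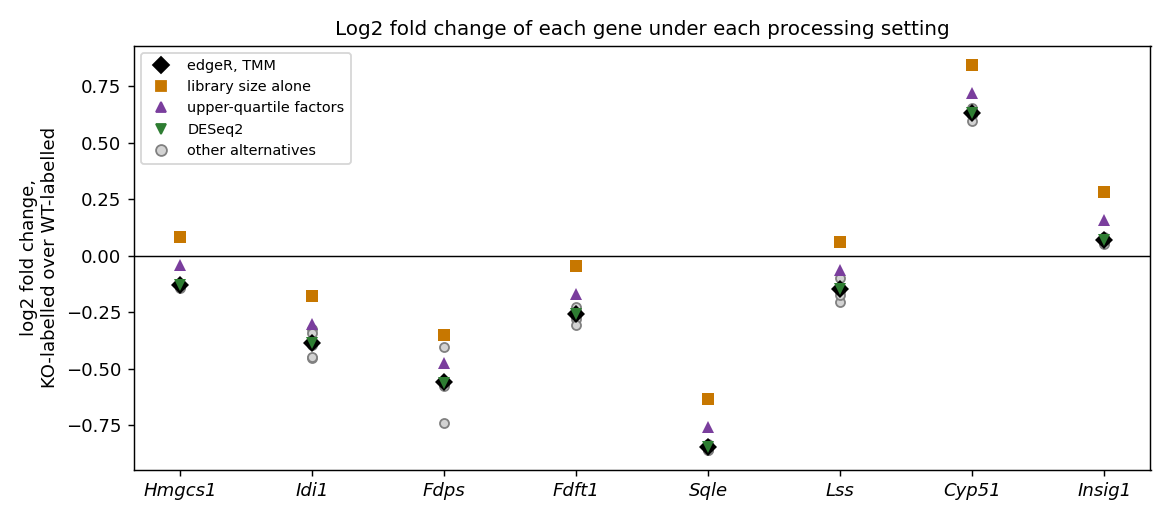
Log2 fold change, KO-labelled over WT-labelled, of the 8 genes in pathway order under the edgeR fit with TMM scaling and 11 alternatives; each symbol is a fit. Sqle and Cyp51 keep their sides of 0 in every fit, whereas Hmgcs1 and Lss reach 0.08 and 0.06 with library size alone.

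The remaining enzymes of the route, 14 in all, also lay on both sides of 0. Of the 13 that were tested, 3 were called higher, 6 lower and 4 neither, where 37.2% and 35.8% of all genes tested were called higher and lower. Their median log2 fold change was -0.05, and Idi2 did not pass the filter. In the mevalonate part Acat2, the cytosolic thiolase that opens the route, had 59.95 and 64.85 CPM in KO-labelled libraries and 132.0 and 124.7 CPM in WT-labelled ones, a fall of 1.04 ± 0.05 (log2; edgeR adjusted p = 1.21e-15). Mvk, mevalonate kinase, had a log2 fold change of -0.38 ± 0.08 (adjusted p = 0.00012) and Pmvk, the next kinase, of -0.22 ± 0.08 (adjusted p = 0.0137), and both calls were lost with library size alone (adjusted p = 0.0543 and 0.905). That of Pmvk was also lost with upper-quartile scaling (adjusted p = 0.123), without KO-labelled replicate 2 (0.0741) and without WT-labelled replicate 1 (0.0785). Mvd, the decarboxylase of that part, was not called (-0.05 ± 0.06).

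After lanosterol, 3 of 9 enzymes were called higher and 3 lower, or 6 higher with library size alone. With TMM, 37.2% of all genes tested were called higher and 35.8% lower. Msmo1, the methylsterol oxidase that acts shortly after Cyp51, was at 127.4 and 140.1 CPM in KO-labelled libraries and at 78.71 and 71.29 CPM in WT-labelled ones (log2 fold change 0.83 ± 0.05, edgeR adjusted p = 4.47e-12). Dhcr7, a reductase at the end of the route, had a log2 fold change of 0.38 ± 0.06 (adjusted p = 2.49e-06) and Lbr, a sterol reductase that also binds lamin, of 0.12 ± 0.04 (adjusted p = 0.00546). In the other direction, Ebp, a sterol isomerase, was at 17.50 and 17.80 CPM in KO-labelled libraries and at 51.95 and 45.31 CPM in WT-labelled ones (-1.46 ± 0.08, adjusted p = 4.36e-14). Nsdhl, a dehydrogenase of the demethylation steps, had a log2 fold change of -0.32 ± 0.07 (adjusted p = 0.000194). Cyp51 and Msmo1 on the higher side and Sqle, Acat2 and Ebp on the lower side thus stood furthest from 0 among the 20 enzymes tested.

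**Figure D3:**
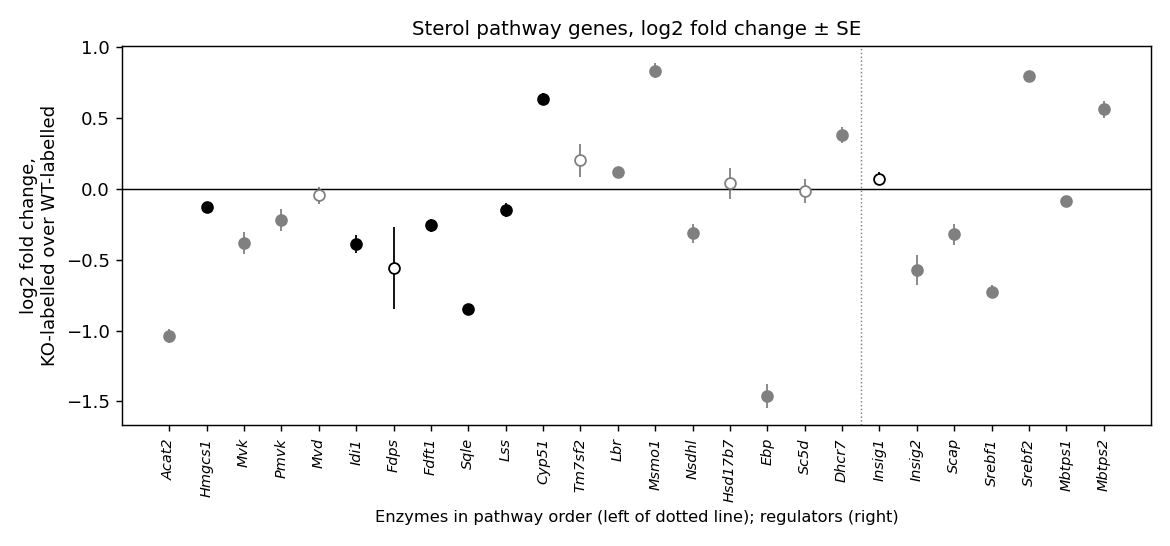
Log2 fold change ± SE, KO-labelled over WT-labelled, of enzymes in pathway order (left of the dotted line) and of regulators (right); black symbols are the 8 genes, grey symbols other genes, and open symbols were not called. The enzymes lie on both sides of 0, from Ebp at -1.46 to Msmo1 at 0.83.

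Among the regulators of the SREBP system, 3 of 11 were called higher and 7 lower, where 37.2% and 35.8% of all genes tested were. Srebf2 stood at 360.5 and 350.7 CPM in KO-labelled libraries and at 206.9 and 202.7 CPM in WT-labelled ones (log2 fold change 0.80 ± 0.03, edgeR adjusted p = 2.01e-17). Srebf1, whose products include the SREBP form of fatty acid synthesis, stood at 80.87 and 80.22 CPM in KO-labelled libraries and at 137.7 and 128.7 CPM in WT-labelled ones (-0.73 ± 0.05, adjusted p = 2.37e-13). The pair of SREBP genes thus lay on opposite sides. Insig2, the paralogue of Insig1, had a log2 fold change of -0.57 ± 0.11 (adjusted p = 4.1e-05), Scap of -0.32 ± 0.07 (adjusted p = 0.000428), Mbtps2, a protease that releases SREBP, of 0.56 ± 0.06 (adjusted p = 1.08e-08), and Rnf145, a ubiquitin ligase, of -0.61 ± 0.04 (adjusted p = 6.56e-13). With library size alone, 5 of the 11 were called higher and 3 lower, and Srebf2 and Srebf1 kept their directions.

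Of 12 genes of uptake and transport within the cell, 6 were called higher and 2 lower. The shares of all genes tested were 37.2% and 35.8%, and the median log2 fold change of the 12 was 0.19. Lrp8, a lipoprotein receptor that also binds reelin, had 35.83 and 37.77 CPM in KO-labelled libraries and 2.76 and 2.46 CPM in WT-labelled ones (3.81 ± 0.13, edgeR adjusted p = 5.83e-19). Vldlr, a related receptor, averaged 12.23 ± 0.408 CPM in KO-labelled and 2.50 ± 0.259 CPM in WT-labelled libraries (2.28 ± 0.18, adjusted p = 1.88e-11). Both receptors are also genes of neural tissue, and their rise stood beside that of the neural, mesoderm and endoderm markers given above. A link between these rises was not tested. Gramd1b, a carrier of cholesterol from the plasma membrane, fell by 0.82 ± 0.07 (adjusted p = 1.2e-10).

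Of the 9 genes tested for efflux, storage and oxysterols, 5 were called higher and 2 lower. Among all genes tested the shares were 37.2% and 35.8%. The sterol exporters Abcg1 and Abca1 differed in direction, with log2 fold changes of 2.36 ± 0.13 (edgeR adjusted p = 3.34e-14) and -0.62 ± 0.09 (adjusted p = 2.1e-06). Cyp46a1, the cholesterol hydroxylase of neurons, was scarce at 1.06 ± 0.114 CPM in KO-labelled and 0.272 ± 0.180 CPM in WT-labelled libraries (1.90 ± 0.62, adjusted p = 0.00811), a call lost without KO-labelled replicate 1 or without WT-labelled replicate 2. Cyp7b1, an oxysterol hydroxylase, fell by 0.75 ± 0.25 (adjusted p = 0.00834), a call lost without WT-labelled replicate 2 (adjusted p = 0.0825) and with library size alone (0.0514). Ch25h had no count in any library.

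Of 14 genes of fatty acid synthesis and related lipid metabolism, 9 were called lower and 4 higher, where 35.8% and 37.2% of all genes tested were. The median log2 fold change of the 14 was -0.46. Fasn, fatty acid synthase, was at 470.2 and 453.2 CPM in KO-labelled libraries and at 850.9 and 862.8 CPM in WT-labelled ones (-0.89 ± 0.03, edgeR adjusted p = 6.3e-20), and Lpin1, a phosphatidate phosphatase, fell by 0.88 ± 0.07 (adjusted p = 1.75e-11). Acly, Acaca, Scd1 and Scd2 were also called lower, by 0.56 to 0.76 on the log2 scale. The desaturase Fads1 (0.60 ± 0.04, adjusted p = 5.44e-12) and the malic enzyme Me1 (0.47 ± 0.09, adjusted p = 3.04e-05) were called higher.

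The profile of the 8 genes over the 4 libraries, taken as the median of their deviations from their own means in log2 CPM, lay nearest to Wasf2, Rps7, Rps13, Cbx5 and Cpsf7 among 7417 genes of at least 20 CPM. Their Euclidean distances were 0.0081 to 0.0168, while the 8 genes themselves lay at 0.0829 (Hmgcs1) to 0.838 (Cyp51) from that median. Likeness here rests on 4 libraries in 2 groups. The 5 genes had log2 fold changes of -0.20 to -0.22, and with library size alone Wasf2 and Rps7 turned to 0.003 and 0.011.

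Promoter sequences were matched for 5 of the 8 genes (Hmgcs1, Idi1, Lss, Cyp51 and Insig1) in RefSeq's promoter table (build GRCm38.p6, which is mm10), and in both loop lists an anchor covered the start site of each of these 5 genes. The 250 bases before the start are printed for Hmgcs1, which holds the sterol element, for Cyp51, the member called higher, and for Insig1, the regulator, each 5′ to 3′ on the strand of its gene. Capitals mark the sterol element TCACCCCAC and the CCAAT box (ATTGG on the other strand). The regions are chr13:119690101-119690350 on the plus strand (Hmgcs1), chr5:4104698-4104947 on the minus strand (Cyp51) and chr5:28071162-28071411 on the plus strand (Insig1).
Hmgcs1: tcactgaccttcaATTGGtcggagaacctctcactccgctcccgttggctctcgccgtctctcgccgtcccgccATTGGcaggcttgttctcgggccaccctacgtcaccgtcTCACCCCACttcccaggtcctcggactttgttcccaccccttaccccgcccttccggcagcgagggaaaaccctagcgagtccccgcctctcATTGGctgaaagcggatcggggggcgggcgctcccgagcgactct
Cyp51: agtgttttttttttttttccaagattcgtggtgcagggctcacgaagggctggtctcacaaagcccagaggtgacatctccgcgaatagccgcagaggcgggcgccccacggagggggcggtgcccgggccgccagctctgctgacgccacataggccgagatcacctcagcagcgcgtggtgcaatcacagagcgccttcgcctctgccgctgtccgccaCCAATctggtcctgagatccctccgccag
Insig1: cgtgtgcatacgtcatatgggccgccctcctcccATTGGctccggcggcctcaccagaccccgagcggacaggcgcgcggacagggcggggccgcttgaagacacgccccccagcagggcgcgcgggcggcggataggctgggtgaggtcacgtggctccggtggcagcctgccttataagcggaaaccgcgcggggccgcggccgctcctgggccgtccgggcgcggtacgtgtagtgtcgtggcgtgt
Each of the 5 promoters held the CCAAT box, which NF-Y binds, in the window from 250 bases before to 50 after the start, where 37.9% of 27025 promoters held it on either strand. Each also held GGGCGG, the core of sites of Sp proteins, as did 35.9% of all promoters. The sterol element TCACCCCAC, to which SREBP binds, was found in Hmgcs1 alone, starting 137 bases before the start site, and in 0.522% of all promoters. The looser TCACNCCAC, which includes the stricter form, was in Hmgcs1 alone too and in 1.22% of all promoters. CCACCC, a core shared by sites of Krueppel-like factors, was in Hmgcs1 and Lss and in 30.9% of all promoters. It shares the letters CACCC with the sterol element. Its Hmgcs1 matches, at positions -155 and -104 from the start site, lay apart from that element. The windows of the 5 genes had 51.2% to 73.6% GC upstream of the start, against a median of 52.0% over all promoters. Only the spellings TCACCCCAC and TCACNCCAC were searched, so an SREBP site with other letters would be missed. A promoter without a match may therefore still hold such a site. Such matches describe letters only, and promoters of Fdps, Fdft1 and Sqle were not analysed here.

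HiChIP joins DNA ends that lie together in the nucleus and keeps those bound by the target, here polymerase II, so that a loop is a pair of anchors with a count of paired tags. A loop was kept if it had 2 or more tags and a false discovery rate (FDR) no higher than 0.01, both the authors' values. With 1 list per labelled genotype there is no replicate and no test, and intervals are exact Poisson intervals that cover counting error only. The KO-labelled list had 57463 kept loops of 489409 and anchors over 172.8 Mb, and the WT-labelled list 22148 of 143451 and anchors over 92.5 Mb, so tags are given per 100000 tags of each list. Kept loops held 4.98 tags on average in the KO-labelled list and 7.91 in the WT-labelled list.

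At the 8 genes, 35 loops were kept in the KO-labelled list and 19 in the WT-labelled list, and 4 in each list were matched in the other at both anchors. In the KO-labelled list 6 of 8 genes had a kept loop, where 54.3% of protein-coding genes did, and in the WT-labelled list also 6 of 8, where 37.8% did. Hmgcs1 and Idi1 had none in the KO-labelled list, and Idi1 and Lss none in the WT-labelled list. Of these loops 17 of 35 (KO-labelled) and 9 of 19 (WT-labelled) rested on 2 tags. The far anchor had no counterpart in the other list for 18 of the 35 and 5 of the 19. Shares of matched loops and of far anchors without a counterpart were not computed over all kept loops. The KO-labelled list held more anchors, 51088 against 24123 in the WT-labelled list. These counts therefore cannot be read as a trait of the 8 genes.

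**Figure D4:**
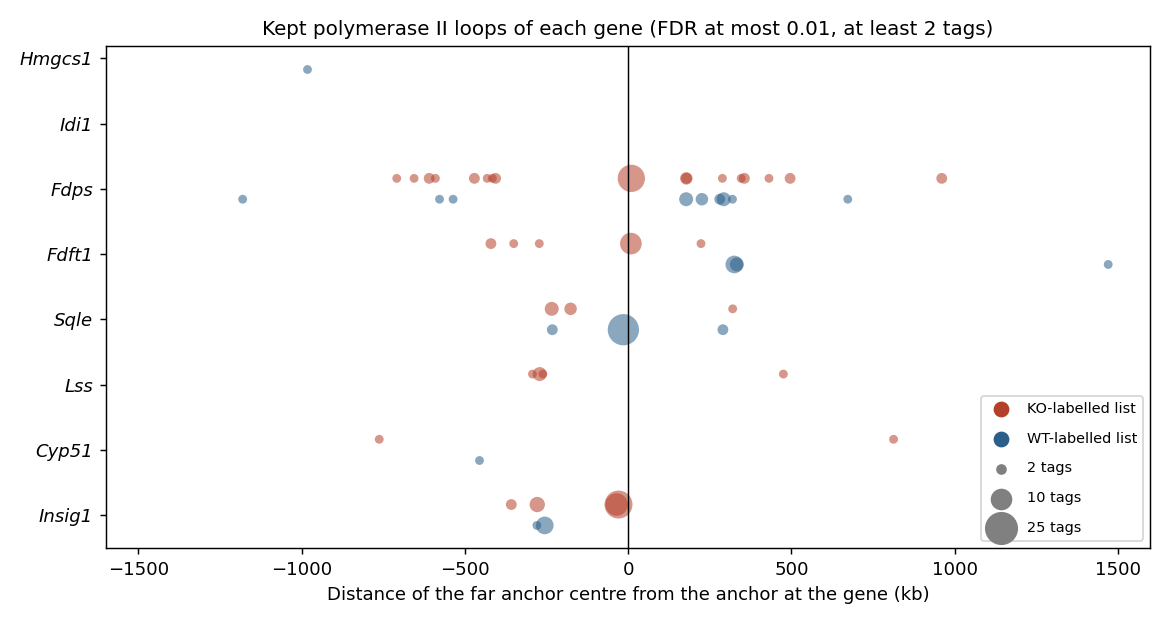
Kept loops of the 8 genes, each a circle at the distance in kb from the anchor at the gene to the far anchor (negative toward lower coordinates), with area growing with its tags; the KO-labelled list is drawn above the WT-labelled list in each row. The circle of 25 tags at Sqle belongs to the WT-labelled list, and those of 20 and 13 tags at Insig1 belong to the KO-labelled list.

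Sqle was the called member with the lowest log2 fold change in RNA. Sqle had a smaller share of the tags in the KO-labelled list, more so among kept loops than among all. It had 11 kept tags in the KO-labelled list and 31 in the WT-labelled list, or 1.13 (0.562 to 2.01) and 7.61 (5.17 to 10.8) per 100000 tags, a ratio of 0.148. Over all listed loops, whatever their FDR, it had 50 tags in the KO-labelled list and 47 in the WT-labelled list, or 5.12 (3.80 to 6.75) and 11.5 (8.48 to 15.4) per 100000, a ratio of 0.443. The ratio of kept tag shares over 6988 genes with kept loops in both lists had a median of 0.735 and quartiles of 0.278 and 2.0. Most of the kept tags of the WT-labelled list lay in 1 loop of 25 tags in the WT-labelled list, which joined an anchor over an end of Sqle at chr15:59312907-59316162 to an anchor of 16139 bases at chr15:59291930-59308068, over Zfp572 and Gm36617. The KO-labelled list had 3 tags between overlapping anchors there, from a narrower anchor, and they did not pass (FDR 0.863). A loop to Mtss1, a gene of actin and membrane shape, was kept in both lists, with 5 tags in the KO-labelled list and 3 tags in the WT-labelled list over 234 and 232 kb. Mtss1 RNA was at 159.6 and 161.6 CPM in KO-labelled and 153.5 and 158.0 CPM in WT-labelled libraries and was not called (edgeR adjusted p = 0.275).

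Insig1 leaned the other way. Its kept tags were 42 in the KO-labelled list and 10 in the WT-labelled list. Per 100000 tags these were 4.30 (3.10 to 5.81) and 2.46 (1.2 to 4.52), with intervals that overlap. Their ratio of 1.75 lay within the quartiles over genes with kept loops in both lists, 0.278 and 2.0. Over all listed loops Insig1 had 8.49 (6.77 to 10.5) and 4.67 (2.81 to 7.29) per 100000 in the KO-labelled and WT-labelled lists, also overlapping. The loops of 20 and 13 tags in the KO-labelled list joined its promoter to anchors 29.5 and 35.4 kb away, inside the non-coding gene Gm35223 that also spans Insig1, and the WT-labelled list had no anchor at either. In the WT-labelled list the main loop had 8 tags and spanned 255 kb, to an anchor at Gm20239 that the KO-labelled list lacked. Both lists joined Insig1 to Paxip1, a chromatin and DNA repair gene, with 6 tags in the KO-labelled list and 2 tags in the WT-labelled list. Paxip1 RNA was lower in KO-labelled libraries (log2 fold change -0.71 ± 0.04, edgeR adjusted p = 9.19e-15), while that of Insig1 was not called.

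Fdft1 had different partners in the lists. Its kept tags were 21 in the KO-labelled list and 15 in the WT-labelled list, or 2.15 (1.33 to 3.28) and 3.68 (2.06 to 6.08) per 100000 tags, while over all listed loops the shares were 13.7 (11.5 to 16.2) and 11.5 (8.48 to 15.4), the other way round and with overlapping intervals. In the KO-labelled list 12 tags joined an anchor over the shared border of Fdft1 and Neil2, a DNA glycosylase gene, to an anchor inside Neil2 8.48 kb away, so this loop may lie within Neil2 alone, and the WT-labelled list had no anchor at its far end. Neil2 RNA was at 29.49 and 27.95 CPM in KO-labelled libraries and at 2.88 and 2.57 CPM in WT-labelled ones (3.39 ± 0.13, edgeR adjusted p = 2.25e-17). In the WT-labelled list 8 and 5 tags joined Fdft1 to Tdh, the threonine dehydrogenase that mouse stem cells are known to use, 325 and 333 kb away, and the KO-labelled list had no anchor there. Tdh RNA was at 330.4 and 307.5 CPM in KO-labelled libraries and at 629.6 and 631.6 CPM in WT-labelled ones (-0.98 ± 0.03, adjusted p = 7.59e-19). A further loop of 3 tags in the KO-labelled list reached Ints6, a subunit gene of the Integrator complex, whose RNA was lower in KO-labelled libraries (-0.35 ± 0.05, adjusted p = 1.85e-06), and 1 of 2 tags reached Wdfy2, whose RNA was not called (adjusted p = 0.704). RNA of partner genes thus differed both with and against the list that held the loop.

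Fdps, with the fewest reads of the 8, had the most kept loops, 17 in the KO-labelled list and 9 in the WT-labelled list. Its tag shares overlapped, at 6.14 (4.69 to 7.90) and 6.63 (4.37 to 9.65) per 100000 tags. A loop of 19 tags in the KO-labelled list joined both ends of Fdps over 9.81 kb. The overlapping pair in the WT-labelled list had 12 tags over 12.3 kb but missed the limit (FDR 0.0707). Its lower anchor, chr3:89087022-89091863, lay outside Fdps, whose lower end is at 89093588. The lower KO-labelled anchor, chr3:89089154-89095035, also lay mostly outside Fdps. Some kept loops of both lists counted for Fdps started from these lower anchors and may belong to a neighbour. Loops to Efna1, an ephrin ligand, were kept in both lists (4 tags KO-labelled, 5 tags WT-labelled), as were loops to Zbtb7b, a zinc-finger factor (2 and 3 tags). The WT-labelled list kept a further loop of 5 tags (FDR 6.66e-08) from the anchor outside Fdps to Dcst2 and Zbtb7b. The KO-labelled list had 0 tags between overlapping anchors there. It kept a further loop of 3 tags to an anchor at Dpm3, Efna1 and Slc50a1. A loop of 3 tags over 356 kb joined Fdps to Pmvk, another enzyme of the route, in the KO-labelled list, and 1 tag joined them in the WT-labelled list.

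The other members had few tags. Lss had 4 kept loops with 11 tags in the KO-labelled list, 5 of them to Dip2a and S100b over 271 kb, and none in the WT-labelled list, where 0 kept tags allow up to 0.906 per 100000. That bound lies inside the KO-labelled interval of 0.562 to 2.01, and over all listed loops Lss had 3.89 (2.75 to 5.34) and 1.23 (0.399 to 2.87) tags per 100000 in the KO-labelled and WT-labelled lists. Dip2a RNA was higher in KO-labelled libraries (1.37 ± 0.11, edgeR adjusted p = 6.1e-11), and so was that of Prmt2, an arginine methyltransferase at a further Lss loop of 2 tags (1.58 ± 0.12, adjusted p = 1.13e-11). Cyp51 had 2 kept loops of 2 tags each in the KO-labelled list, to the kinase genes Cdk6 and Cdk14, and 1 of 2 tags in the WT-labelled list, to Gatad1. Cdk14 RNA was at 8.14 and 7.76 CPM in KO-labelled libraries and at 0.057 and 0.253 CPM in WT-labelled ones, whereas that of Cdk6 was lower in KO-labelled libraries (-0.44 ± 0.07, adjusted p = 1.34e-06). Hmgcs1 had a single kept loop, of 2 tags over 985 kb in the WT-labelled list, and a loop of 11 tags over 7.68 kb in the KO-labelled list just missed the limit (FDR 0.0108). Over all listed loops Hmgcs1 had 14 tags in the KO-labelled list and 6 in the WT-labelled list, or 1.43 (0.783 to 2.4) and 1.47 (0.541 to 3.21) per 100000. No loop of Idi1 was kept.

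Over all kept loops of the 8 genes, the far anchors met 39 protein-coding genes, of which 34 were tested in RNA. Of these 14 were called higher, 15 lower and 5 neither in the KO-labelled libraries, where 37.2% and 35.8% of all genes tested were called higher and lower. Sqle had a smaller share of tags and less RNA on the KO-labelled side. Over all listed loops it had 50 tags in the KO-labelled list and 47 in the WT-labelled list. Per 100000 tags of each list these were 5.12 (3.8 to 6.75) and 11.5 (8.48 to 15.4), again a smaller KO-labelled share. Cyp51, the member with higher RNA, had 0.409 (0.112 to 1.05) kept tags per 100000 in the KO-labelled list. In the WT-labelled list Cyp51 had 0.491 (0.0595 to 1.77), and the intervals do not tell these values apart.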

How the data were processed

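Each RNA-seq library has a table of raw counts by gene symbol, deposited by the authors. The submitters' processing notes name HISAT2 2.1.0, featureCounts 2.0.3, DESeq2 1.18.1, Bowtie2 2.4.4, MACS2 2.2.7.1 and HiC-Pro 2.11.1, and the build mm10. Annotation, strand setting and loop caller are not given in sources used here. Rows naming no gene (22.3% and 22.5% of KO-labelled column totals, 20.4% and 21.1% of WT-labelled ones) were left out. The deposited loop lists give the authors' tag counts and FDR (a q-value) per pair of anchors, with replicates pooled.

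After filterByExpr and TMM scaling, which the CPM values use too, genes were tested in R 4.3.3 with edgeR 4.0.16 (robust glmQLFit, glmQLFTest, two-sided), with Benjamini-Hochberg adjustment over 17273 genes and a threshold of 0.05. Standard errors come from fold changes and F statistics. CPM compares a gene between libraries, not genes with each other. Replicates differed beyond counting noise (chi-square per degree of freedom 4.31 in the KO-labelled and 3.54 in the WT-labelled pair). The fit was tested on simulated data with as many rises as falls and far fewer changed genes than were called here. Such data do not check the choice of scaling. Coordinates and promoters came from RefSeq tables of GRCm38.p6.

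Members and lists were chosen with earlier results of these data known. Named genes were the 8 members, Klf4, the 2 largest called rises and falls of each further list, the 5 genes nearest in profile, and genes at far anchors of kept loops. Other genes were named after their values were seen, among them Mvd, Lbr, Nsdhl, Insig2, Scap, Mbtps2, Acly, Acaca, Scd1, Scd2 and genes adjacent to members. Some genes of the pathway, some of them named by this rule, are counted in their lists but not reported here. Alternatives were DESeq2 1.42.0, other scalings and filters, a replicate block, leaving out each library, and other loop thresholds and windows.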

Additional observations from a re-analysis of the deposited data

How the results depend on the processing

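Idi1, Sqle and Cyp51 kept direction and call under all 11 alternative fits, and all 8 genes did so with DESeq2, RLE factors, both other filters and the replicate block. Scaling mattered most: library size alone put the median log2 fold change of all genes at 0.236, against 0.026 with TMM, and 62.0% of called genes on the higher side, against 50.9%; upper-quartile factors gave 0.112 and 55.4%. Members called higher then numbered 3 with library size alone and 2 with upper-quartile factors (1 with TMM), and members called lower 2 and 3 (5 with TMM). With library size alone the other lists also moved: of the other mevalonate enzymes 1 was called higher and 1 lower, of the enzymes after lanosterol 6 were higher, of the isoprenoid branch 3 were lower, of the SREBP regulators 5 were higher and 3 lower, and of the efflux genes 1 was lower. Leaving out a library gave 1 to 2 efflux genes called lower. Signs turned with library size alone for Hmgcs1 (0.081), Lss (0.061), Wasf2 (0.003), Rps7 (0.011), Gatad1 (0.05), Gm17232 (0.063), Hdgf (0.134), Shc1 (0.08), Ube2q1 (0.06), Wdfy2 (0.173) and Rusc1 (0.102), with upper-quartile factors for Hdgf (0.01) and Wdfy2 (0.049), and on leaving out a library for Wdfy2 (-0.13 to 0.039) and Rusc1 (-0.294 to 0.101). The cause was not tested.

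Counting every listed loop gave 251 loops (KO-labelled) and 114 (WT-labelled) at the 8 genes, against 35 and 19 kept, and at least 4 tags left 9 and 7. The replicate numbers are not stated to mark a shared batch, and deviations of same-numbered libraries correlated at 0.015; with the number as a block 6298 genes were called higher and 6112 lower, against 6428 and 6190 without, and no call among the 8 genes changed. Depth limits Fdps (66 to 107 counts) and every loop of 2 tags.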

Other observations

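The branch that leads from farnesyl diphosphate to isoprenoids other than sterols also split. Of 10 genes, 2 were called higher and 6 lower, where 37.2% and 35.8% of all genes tested were. Their median log2 fold change was -0.20. Ggps1, which makes geranylgeranyl diphosphate, was at 33.20 and 33.95 CPM in KO-labelled libraries and at 24.91 and 24.42 CPM in WT-labelled ones (0.44 ± 0.08, edgeR adjusted p = 2.91e-05), and Dhdds, a subunit of the dolichol-forming transferase, had a log2 fold change of 0.40 ± 0.08 (adjusted p = 5.01e-05). Pdss1, which builds the side chain of ubiquinone, was at 10.07 and 8.98 CPM in KO-labelled libraries and at 32.80 and 31.72 CPM in WT-labelled ones (-1.76 ± 0.10, adjusted p = 8.48e-14). Fntb, the catalytic subunit of protein farnesyltransferase, was at 48.17 and 48.68 CPM in KO-labelled libraries and at 97.01 and 105.1 CPM in WT-labelled ones (-1.06 ± 0.05, adjusted p = 5.39e-15).

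Genes next to the members were read as well. Washc5, next to Sqle, was at 77.66 and 80.45 CPM in KO-labelled libraries and at 158.3 and 162.8 CPM in WT-labelled ones (-1.02 ± 0.04, adjusted p = 5.98e-17). Akap9, next to Cyp51, was at 79.27 and 83.71 CPM in KO-labelled libraries and at 46.31 and 47.91 CPM in WT-labelled ones (0.79 ± 0.06, adjusted p = 3.99e-12). Neil2, next to Fdft1, was higher while Fdft1 was lower, with the values given above. Nim1k, beside Hmgcs1, had a log2 fold change of -1.15 ± 0.30 (adjusted p = 0.0012), and Rusc1, whose end lies close to that of Fdps, was not called (-0.11 ± 0.24, adjusted p = 0.703). These neighbours were picked by position after their values were seen, and whether neighbours of other genes differ as often was not tested.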
